A study of Mus musculus with 6 samples.

Results

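The genes described here mark the GABAergic interneurons of the mouse striatum or make their transmitter. They were chosen by symbol, from their Ensembl identifiers in GENCODE M21, and all 10 were found among the 46078 genes of the table. Pvalb, Sst, Npy, Nos1, Calb2, Vip, Th and Kit mark interneuron classes, and Gad1 and Gad2 encode the enzymes that make GABA. RNA of the whole striatum was sequenced from 3 wild-type (WT) and 3 Shank3 transgenic (TG) mice, all male, 12 weeks old and on the C57BL/6J background, with 1 library per mouse. The TG mice carry an EGFP-tagged Shank3 transgene beside the endogenous gene, and its promoter is not given in the sources used here. Shank3 is a scaffold of the excitatory postsynapse. The comparison asks whether the RNA of the interneuron classes differs between the genotypes.

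Most neurons of the striatum are spiny projection neurons, which also use GABA. Interneurons are a small minority and are told apart by what they express. Fast-spiking cells hold the calcium buffer parvalbumin (Pvalb) and many carry the receptor kinase Kit. Low-threshold spiking cells release somatostatin (Sst) and neuropeptide Y (Npy) and make nitric oxide with neuronal nitric oxide synthase (Nos1). Further classes hold calretinin (Calb2), vasoactive intestinal peptide (Vip) or tyrosine hydroxylase (Th), the rate-limiting enzyme of catecholamine synthesis. Gad1 and Gad2 encode glutamate decarboxylases and are expressed by spiny neurons as well as by interneurons, so they do not mark interneurons alone. In RNA of a whole tissue, fewer cells of a type and less RNA per cell cannot be told apart.

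Promoters of 9 members were found in RefSeq (GRCm38.p6), each from 250 bases before to 50 bases after the start of transcription. They were searched on both strands for the cAMP response element TGACGTCA, which is bound by CREB, a factor switched on by neuronal activity. Sst and Th held a match, 48 and 45 bases before the start, and the element was in 1.79% of all 32851 promoters of this length. Both sequences are shown with the element in capitals because they are the members that hold it, and the letters read the same on either strand. The promoter of Npy is shown as that of a second peptide released by low-threshold spiking cells, and holds no such letters in this window. Sst lies on the minus strand at chr16:23890795-23891094, Th on the minus strand at chr7:142899946-142900245 and Npy on the plus strand at chr6:49822460-49822759, and each is printed 5′ to 3′ in the direction of its gene.
Sst: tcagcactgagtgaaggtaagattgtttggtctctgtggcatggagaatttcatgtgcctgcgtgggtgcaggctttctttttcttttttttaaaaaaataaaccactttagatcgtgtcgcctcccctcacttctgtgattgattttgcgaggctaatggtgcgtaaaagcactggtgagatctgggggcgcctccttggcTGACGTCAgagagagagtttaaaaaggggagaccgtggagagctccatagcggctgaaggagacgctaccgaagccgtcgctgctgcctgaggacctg
Th: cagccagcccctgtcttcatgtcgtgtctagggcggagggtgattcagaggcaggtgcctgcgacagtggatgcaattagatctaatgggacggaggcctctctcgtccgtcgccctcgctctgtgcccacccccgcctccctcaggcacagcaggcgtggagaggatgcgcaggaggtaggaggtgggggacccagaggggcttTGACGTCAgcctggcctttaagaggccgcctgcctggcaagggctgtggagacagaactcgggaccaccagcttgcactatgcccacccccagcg
Npy: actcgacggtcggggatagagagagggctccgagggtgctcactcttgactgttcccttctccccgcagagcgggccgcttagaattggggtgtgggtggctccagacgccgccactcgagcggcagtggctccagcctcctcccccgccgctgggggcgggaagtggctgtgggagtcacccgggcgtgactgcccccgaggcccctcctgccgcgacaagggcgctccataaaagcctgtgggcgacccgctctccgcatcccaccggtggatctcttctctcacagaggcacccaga
The half-site TGACG, which lies within the full element and was in 20.8% of all promoters, was also found in Gad2, Nos1 and Vip, and TATAAA, in 13.6% of all promoters, in Gad1 and Vip. A match of letters is a description of the sequence, and no binding was measured here.

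Between 27689589 and 36647626 reads per library were recovered on genes. Shank3 RNA was between 26044 and 29891 normalized read counts in TG mice and between 12918 and 13865 in WT mice, which was as labelled in each library. Reads of the transgene cannot be told apart from those of endogenous Shank3. Striatal tissue was present in every mouse, with Ppp1r1b, the spiny neuron phosphatase inhibitor DARPP-32, between 21063 and 28763 normalized read counts. Slc17a7, a marker of cortical excitatory neurons, was between 20237 and 29848, so RNA of such neurons was present in every mouse as well. Levels of the members thus cannot be assigned to striatal interneurons alone, and the part of cortical tissue in them was not tested. TG replicate 1 stood apart. Its 8 choroid plexus markers summed to 15324 normalized read counts, against 540 to 1886 in the other mice, and its 10 spiny neuron markers to 98733, against 114522 to 137631. TG replicate 1 was also the lowest mouse in 5 of the 10 members (Pvalb, Sst, Npy, Nos1 and Kit) and the highest in Calb2 and Th. TG replicate 2 stood at the low end for the 8 cortical excitatory neuron markers, with a sum of 27958 against 32517 to 39710. The part of these differences in the results below was not tested, and estimates without TG replicate 1 are given beside those of named genes that it turned or moved by more than 1.5 times.

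Per kb of exon, the peptide genes Sst and Npy stood highest among the members. Sst had 6551 ± 371 normalized read counts per kb in TG mice and 6661 ± 639 in WT mice (SD, n = 3 each), and over all mice it lay above 99.5% of the genes tested. Npy came next, with 2490.2 ± 142 in TG and 2644 ± 204 in WT mice. Gad1 and Gad2 followed at means of 1880 and 1817 over the 6 mice and could not be ordered, since their ranges overlapped. Pvalb stood alone below them at 719, with a range over the mice of 636 to 837. Nos1 (193), Calb2 (152), Kit (142), Vip (108) and Th (78.0) formed the lower end, and each of these overlapped in range with the next in the order. Th, the lowest, still lay above 40.7% of the genes tested. These levels rest on exon lengths of GENCODE M21 and are levels, not differences between genotypes.

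**Figure D1:**
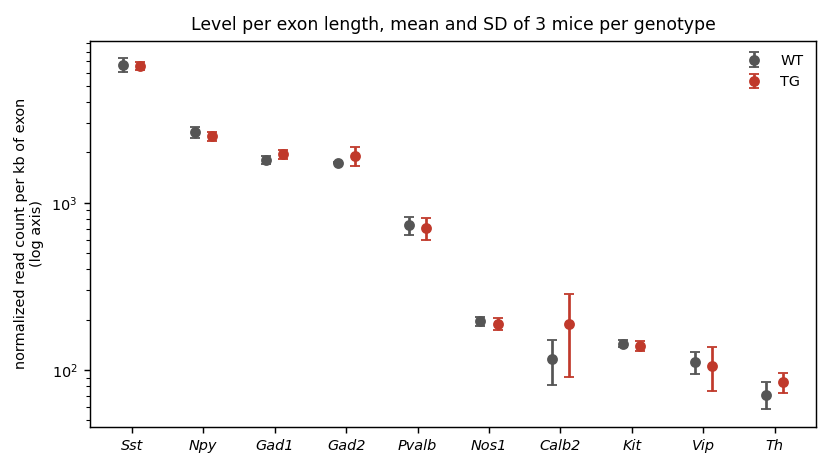
Level of each gene as normalized read counts per kb of exon (vertical log axis), with the mean and SD of 3 WT mice (grey) and 3 TG mice (red). Sst, Npy, the Gad genes and Pvalb stand in steps, and Nos1, Calb2, Kit, Vip and Th lie close together between means of 78.0 and 193.

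None of the 10 members passed the test between TG and WT striatum. By limma, 0 of 10 had an adjusted P value under 0.05, where 0.00568% of the 17605 genes tested did (1 gene, Shank3), and 0 of 10 had an unadjusted P value under 0.05, where 4.31% of all genes did. DESeq2, edgeR and limma-voom on the recovered reads also called 0 members, where DESeq2 called 7 and edgeR and limma-voom 1 each of the 17605 genes. TG and WT values overlapped in every member, whereas they were apart in 10.1% of all genes (5.06% higher and 5.05% lower in TG). Estimates above 0 were seen in 4 of 10 members (Calb2, Th, Gad1 and Gad2), against 49.2% of all genes, and below 0 in 6. The median log2 fold change of the members was -0.03, and that of all genes was -0.0018. Without TG replicate 1 the estimates were above 0 in 7 members, since Pvalb, Sst and Kit crossed 0, and the median was 0.02.

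**Figure D2:**
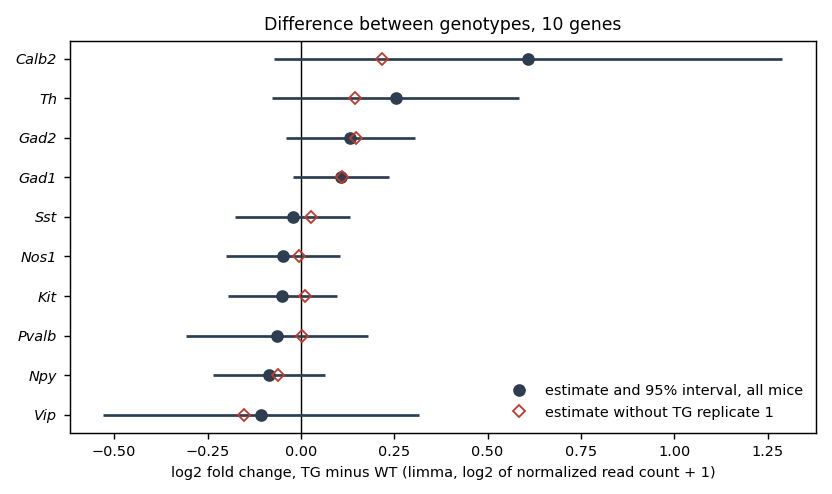
Log2 fold change of each member between TG and WT mice by limma (filled points) with its 95% confidence interval (lines), and the estimate without TG replicate 1 (open diamonds). All 10 intervals include 0, that of Calb2 is the widest, and its estimate drops from 0.61 to 0.22 without TG replicate 1.

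The precision differed widely between members. As a ratio of TG to WT, the 95% interval ran from 0.885 to 1.10 for Sst, from 0.873 to 1.07 for Kit and from 0.870 to 1.08 for Nos1. That of Calb2 ran from 0.951 to 2.45, and that of Vip from 0.693 to 1.24. The fewest reads behind a value of Calb2 were 148, a counting error of 8.22%, while the values of the 3 TG mice had a coefficient of variation of 51.7%. The spread of Calb2 between mice was thus larger than counting error.

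Both genes of GABA synthesis had a higher mean in TG striatum, with overlap and without passing the test. Gad1 (ENSMUSG00000070880; chromosome 2, 70553072 to 70602014), which makes most of the GABA pool of the cell body, had 14822, 15776 and 14074 normalized read counts in TG replicates 1, 2 and 3 and 13301, 13483 and 14689 in WT replicates 1, 2 and 3. TG replicates 1 and 2 stood above all WT mice, and TG replicate 3 fell below WT replicate 3. Mean values were 14891 ± 853 in TG and 13824 ± 754 in WT (SD, n = 3 each), a log2 fold change of 0.11 (standard error, SE, 0.06, limma adjusted P = 0.971). The fold change was 0.06 without TG replicate 2. For Gad1 an exact permutation test (two-sided) gave P = 0.2, where 3 mice against 3 cannot go below 0.1. Gad2 (ENSMUSG00000026787; chromosome 2, 22622205 to 22693874), whose product is tied to synaptic terminals, had 10894, 12793 and 9906 normalized read counts in TG, against 10123, 10241 and 10110.0 in WT. The WT values lay within a coefficient of variation of 0.709%, and the TG values on both sides of them, with TG replicate 2 highest and TG replicate 3 lowest of all. The means were 11198 ± 1467 in TG and 10158 ± 72.1 in WT (SD, n = 3 each). Its log2 fold change was 0.13 (SE 0.08, limma adjusted P = 0.971), and it was 0.03 without TG replicate 2. TG replicate 2, highest in both genes, also had the highest sum of the spiny neuron markers, 137631 normalized read counts. TG replicate 1, with the lowest such sum, 98733, stood above all WT mice in both genes. The part of spiny neurons in these values was not tested. Gad1os, a gene antisense to Gad1, shares 0 exon bases with it. The ratio of Gad2 to Gad1 lay between 0.688 and 0.811 over the mice, and the genotypes overlapped in it.

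**Figure D3:**
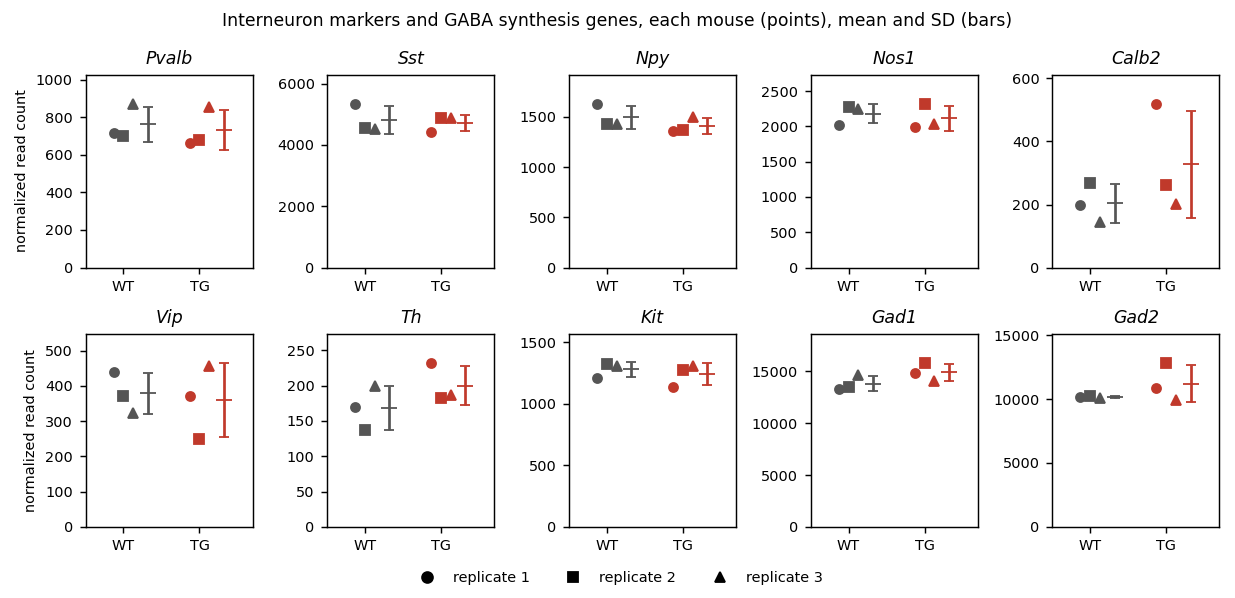
Normalized read counts (vertical axes, from 0) of each of the 10 members in the 3 WT mice (grey) and 3 TG mice (red), with mean and SD beside the points. The genotypes overlap in every panel, and TG replicate 1 (circle) stands far above the others in Calb2.

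Among the genes of the low-threshold spiking class, Sst and Npy had their lowest and their highest value in the same mice, and neither differed between genotypes beyond the spread between mice. Sst (ENSMUSG00000004366; chromosome 16, 23889573 to 23890958) had 4415, 4881 and 4874 normalized read counts in TG, against 5334, 4557 and 4516 in WT. TG replicate 1 was the lowest and WT replicate 1 the highest, and between them the other TG mice stood above the other WT mice. The means were 4723 ± 267 in TG and 4803 ± 461 in WT (SD, n = 3 each), a log2 fold change of -0.02 (SE 0.07, limma adjusted P = 0.989), and 0.03 without TG replicate 1. Npy (ENSMUSG00000029819; chromosome 6, 49822710 to 49829507) had 1359, 1367 and 1502 normalized read counts in TG, against 1629.8, 1432 and 1428 in WT. TG replicate 1 was again lowest and WT replicate 1 highest, while TG replicate 2 stood second highest in Sst and second lowest in Npy. The Npy means were 1409 ± 80.6 in TG and 1497 ± 115 in WT (SD, n = 3 each). Its log2 fold change was -0.09 (SE 0.07, limma adjusted P = 0.971), and the estimate stayed below 0 with each mouse left out. The ratio of Npy to Sst was between 0.280 and 0.316, lowest in TG replicate 2 (two-sided exact permutation test between genotypes, P = 0.3). Cort, which encodes the somatostatin relative cortistatin, was also highest in WT replicate 1, at 108 normalized read counts against 78.9 to 92.3 in the other mice.

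Nos1 shared its lowest mouse, TG replicate 1, with Sst and Npy, but not its highest, TG replicate 2. Nos1 (ENSMUSG00000029361; chromosome 5, 117781032 to 117958840) had 1986, 2317 and 2036 normalized read counts in TG, against 2025, 2278 and 2241 in WT. WT replicate 1, the highest mouse for Sst and Npy, was the lowest WT mouse here, and the ratio of Nos1 to Sst ranged from 0.3795 in that mouse to 0.4999 in WT replicate 2. The means were 2113 ± 178 in TG and 2181 ± 137 in WT (SD, n = 3 each), with a log2 fold change of -0.05 (SE 0.07, limma adjusted P = 0.978), and of -0.0044 without TG replicate 1. Nos1 shares 268 exon bases with Gm26995, a gene on the other strand that had at most 3.37 normalized read counts, and without a stated strand setting reads of both cannot be told apart. Chodl, a marker of the cells that hold both Sst and Nos1, had between 42.2 and 66.4 normalized read counts over all mice, a log2 fold change of 0.03 (SE 0.19).

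In Pvalb and Kit of the fast-spiking class the SD within each genotype was larger than the difference between the means. Pvalb (ENSMUSG00000005716; chromosome 15, 78191114 to 78206400) had 662, 678 and 857 normalized read counts in TG, against 718, 702 and 872 in WT. Replicate 3 of each genotype stood well above its companions, and the 2 lowest values of the set were both of TG mice. Means were 732 ± 108 in TG and 764 ± 93.7 in WT (SD, n = 3 each), with a log2 fold change of -0.06 (SE 0.11, limma adjusted P = 0.983), and of 0.0035 without TG replicate 1. Kit (ENSMUSG00000005672; chromosome 5, 75574916 to 75656722) was steadier, at 1138, 1277 and 1305 normalized read counts in TG, against 1213, 1324 and 1309 in WT. Only TG replicate 1 fell below the WT range. The means were 1239.8 ± 89.5 in TG and 1282 ± 60.2 in WT (SD, n = 3 each). The log2 fold change of Kit was -0.05 (SE 0.07, limma adjusted P = 0.973), and 0.01 without TG replicate 1. Kit also marks mast cells, whose 4 markers Cpa3, Cma1, Tpsb2 and Mcpt4 summed to at most 2.25 normalized read counts in any mouse. The ligand of the receptor, Kitl, came to a log2 fold change of -0.04 (SE 0.06), and -0.02 without TG replicate 1.

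Calb2 and Vip varied most from mouse to mouse. Calb2 (ENSMUSG00000003657; chromosome 8, 110137502 to 110168210) had 519, 262 and 201 normalized read counts in TG, against 197, 267 and 145 in WT, a range of 3.57-fold. TG replicate 1 stood alone at the top, and the other TG mice lay within the WT range. The means were 327 ± 169 in TG and 203 ± 61.3 in WT (SD, n = 3 each), with a log2 fold change of 0.61 (SE 0.31, limma adjusted P = 0.971 and exact two-sided permutation P = 0.4). Without TG replicate 1 the log2 fold change was 0.22. Calretinin is also made by young neurons on their way from the subventricular zone to the olfactory bulb. Of the 5 neuroblast markers, Dcx, Sox11, Igfbpl1 and Cd24a were highest in WT replicate 2 and Sp8 in TG replicate 1. The 5 markers together summed to 3267 normalized read counts in TG replicate 1, where the WT mice ran from 2430 to 4007 and the TG mice from 2672 to 3267, and the lowest value of any of them was 55.1. The part of neuroblasts and of choroid plexus tissue in the value of TG replicate 1 was not tested.

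The genes most like Calb2 over the 6 mice, by the root mean square difference of log2 values centred on each gene's mean, were Gm9924 (0.168), Col4a4 (0.188), Mpp4 (0.225), Gm8010 (0.237) and Gm34294 (0.242). Each was highest in TG replicate 1. All 5 had fewer than 60 normalized read counts in every mouse, so their likeness rests on few reads.

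Vip (ENSMUSG00000019772; chromosome 10, 5639218 to 5647617) had 372, 249.5 and 458 normalized read counts in TG, against 441, 371 and 324 in WT. The highest and the lowest mouse were both TG. The means were 359.6 ± 105 in TG and 379 ± 58.7 in WT (SD, n = 3 each). The log2 fold change was -0.11 (SE 0.19, limma adjusted P = 0.983), and 0.13 without TG replicate 2. Vip cells are common in cortex, and TG replicate 2, lowest in Vip, was also lowest in the summed cortical markers. TG replicate 3, highest in Vip, had the second highest cortical sum, 38836, and WT replicate 3 was second lowest in both. TG replicate 1, with the highest cortical sum, 39710, was in the middle of the order for Vip. The part of cortical tissue in the values of Vip was not tested.

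**Figure D4:**
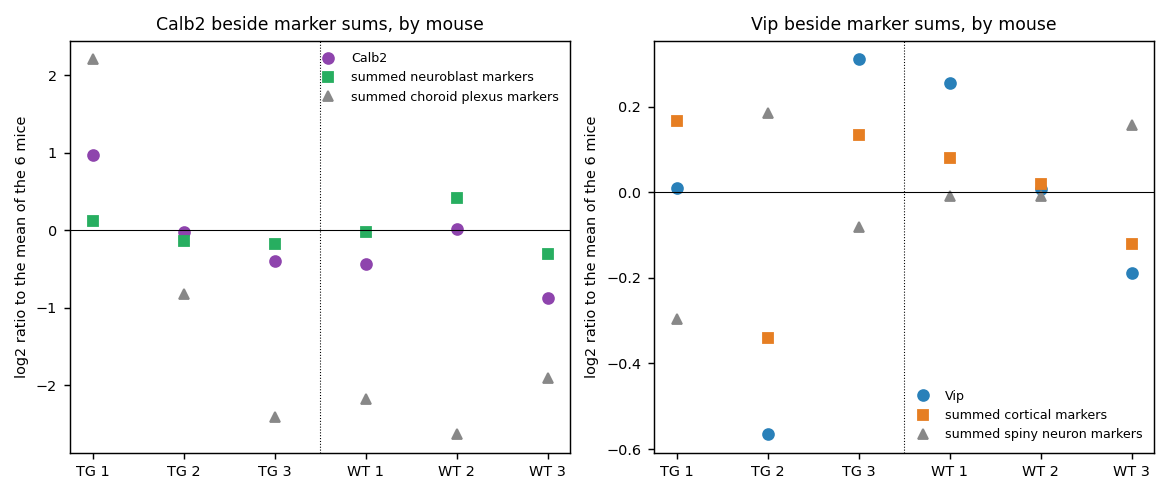
Log2 ratio to the mean of the 6 mice (vertical axes) in each mouse (horizontal axes), for Calb2 with the summed neuroblast and choroid plexus markers (left) and for Vip with the summed cortical and spiny neuron markers (right). Calb2 and the choroid plexus sum peak in TG replicate 1 and the neuroblast sum in WT replicate 2, and Vip and the cortical sum are lowest in TG replicate 2.

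Th was higher in the TG mean, with overlap. Th (ENSMUSG00000000214; chromosome 7, 142892752 to 142931128) had 232, 182 and 187 normalized read counts in TG, against 169, 137 and 199 in WT. WT replicate 3 stood above TG replicates 2 and 3, and otherwise the TG values were higher. Means were 200.2 ± 27.3 in TG and 169 ± 30.9 in WT (SD, n = 3 each), a log2 fold change of 0.25 (SE 0.15, limma adjusted P = 0.971 and exact two-sided permutation P = 0.3). It was 0.14 without TG replicate 1, the highest mouse, and 0.11 without WT replicate 2, the lowest. Sst, the other member with the cAMP response element printed above, had an estimate of -0.02, and of 0.03 without TG replicate 1. The part of the element in the values of Th and Sst was not tested.

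Of 5 other genes of catecholamine synthesis and transport 3 were tested, with 2 estimates above 0, 1 below and a median log2 fold change of 0.23, and none passed the test. Gch1, which makes the cofactor tetrahydrobiopterin used by both tyrosine hydroxylase and nitric oxide synthase, had 68.6, 61.8 and 55.5 normalized read counts in TG, against 32.05, 45.8 and 38.3 in WT. All TG mice stood above all WT mice, with means of 62.0 ± 6.57 and 38.7 ± 6.90 (SD, n = 3 each) on 28 to 80 reads. Its log2 fold change was 0.67 (SE 0.19, unadjusted P = 0.00462 and limma adjusted P = 0.971), and 0.60 without TG replicate 1. Slc18a2, the vesicular monoamine transporter, came to a log2 fold change of 0.23 (SE 0.12), and 0.13 without TG replicate 1. Ddc, the decarboxylase after Th, was at -0.01 (SE 0.15), and 0.17 without TG replicate 1. Slc6a3, the dopamine transporter of midbrain neurons, was below the limit on low values and was not tested in the main comparison. All TG mice stood above all WT mice here too, but on 3 to 14 reads. Its values were 12.0, 6.74 and 7.79 normalized read counts in TG, against 4.58, 3.74 and 2.94 in WT, and limma without that limit gave a log2 fold change of 1.03 (SE 0.41, adjusted P = 0.904). Dbh, also below the limit, had between 0.982 and 13.7 normalized read counts, and the genotypes overlapped.

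Beyond the members, 53 genes of GABA handling, interneuron identity, ligand reception and catecholamine synthesis were listed, of which 51 were tested. Limma called 0 of them as higher and 0 as lower, and Gch1 alone had an unadjusted P value under 0.05. Their log2 fold changes were above 0 in 25 and below 0 in 26 genes, with a median of -0.01. Among the tested genes, Gch1 was the one whose TG values all lay above the WT values. Over all genes tested, 5.06% were apart and higher.

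The 6 genes that load, take up or break down GABA had log2 fold changes between -0.27 and 0.11, with 4 above 0, 2 below and a median of 0.02. Slc32a1, which fills vesicles with GABA, was at -0.03 (SE 0.07). The extremes were Slc6a13, a transporter of the meninges and vessels (-0.27, SE 0.19), and Slc6a11, the astrocyte transporter (0.11, SE 0.09). Without TG replicate 1 these estimates were -0.06 for Slc32a1, -0.52 for Slc6a13 and 0.04 for Slc6a11, with 3 genes of the list above 0 and 3 below. Aldh5a1, which takes the last step of GABA breakdown, was at 0.07 (SE 0.05). Of the 6 other genes of fast-spiking cells, 3 were higher and 3 lower, with a median of -0.01. Syt2, the calcium sensor of fast-spiking terminals, came to a log2 fold change of 0.01 (SE 0.10), Kcnc1, a channel subunit that allows fast firing, -0.06 (SE 0.05), and Pthlh, a peptide of these cells, -0.18 (SE 0.16). Kcnc2, a second channel subunit of this kind, was at 0.12 (SE 0.09), and Erbb4, the neuregulin receptor, at 0.08 (SE 0.06). Syt2 was at 0.07 and Erbb4 at 0.05 without TG replicate 1, and the median of the list was 0.02.

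Of the 12 transcription factors of the interneuron lineages, 10 had estimates below 0, with a median log2 fold change of -0.07, and none passed the test. Lhx6, needed for parvalbumin and somatostatin cells, was one of the 2 with an estimate above 0, at 683, 728 and 581 normalized read counts in TG, against 591, 591 and 613 in WT (log2 fold change 0.14, SE 0.08). Nr2f2, a factor of caudally derived interneurons, was at -0.20 (SE 0.14), and at -0.03 without TG replicate 1, in which it was lowest. Without that mouse 9 of the 12 were below 0, with a median of -0.03. The 9 other interneuron markers had log2 fold changes from -0.25 for Crh, a stress peptide, to 0.14 for Ndnf, a marker of neurogliaform cells, with 4 above 0, 5 below and a median of -0.05. Without TG replicate 1 Ndnf was at 0.02, and 5 markers were above 0 and 4 below, with a median of 0.02. Lamp5, carried by interneurons and by projection neurons, came closest to the test at -0.16 (SE 0.07, unadjusted P = 0.0551).

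The receptors of the peptides and the targets of nitric oxide were near 0 in most cases. Of 15 receptors and partners, 10 were higher and 5 lower in TG mice, with a median log2 fold change of 0.03, and of 0.05 without TG replicate 1. Sstr2, an abundant somatostatin receptor, was at 0.01 (SE 0.09), and Gucy1b1 and Gucy1a1, subunits of the guanylyl cyclase that senses nitric oxide, at 0.03 (SE 0.05) and -0.03 (SE 0.06). These were 0.06, 0.08 and 0.03 in the same order without TG replicate 1. The neuropeptide Y receptors Npy1r and Npy2r had 0.18 (SE 0.10) and 0.23 (SE 0.17). Adcyap1r1, which binds the Vip relative PACAP, was at 0.07 (SE 0.05), and 0.04 without TG replicate 1. Sstr5 had the smallest mean of the group, 9.35 to 25.7 normalized read counts, and a log2 fold change of 0.58 (SE 0.34). Vipr2, named here for its distance from 0, had 78.9 normalized read counts in TG replicate 1 and between 12.6 and 32.4 in the other mice, and its log2 fold change dropped from 0.62 to 0.06 without that mouse.

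**Figure D5:**
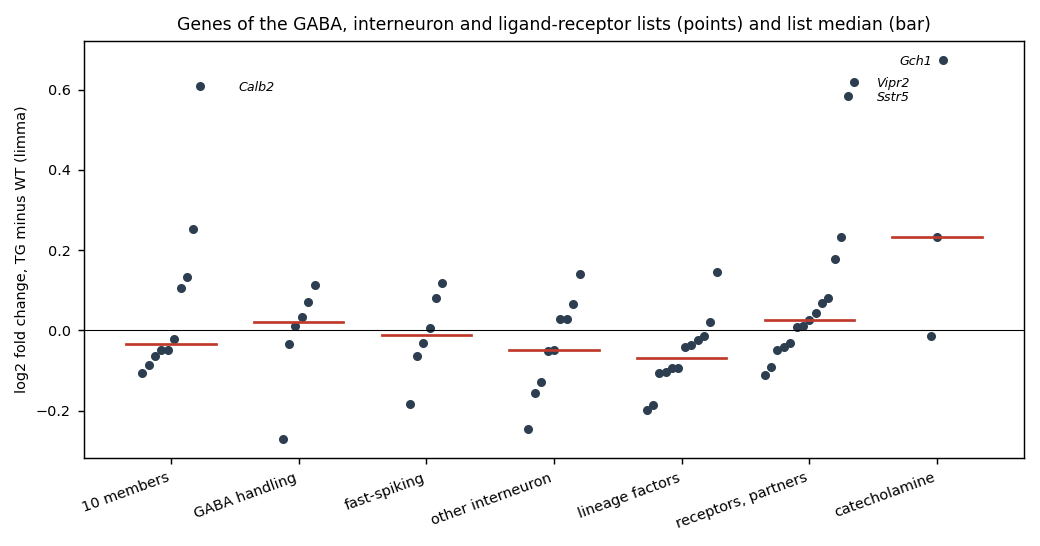
Log2 fold change between TG and WT mice by limma (vertical axis) for each tested gene of the members and of 6 further lists (points), with the median of each list (red bars). Most points lie between -0.3 and 0.3, and Calb2, Vipr2, Sstr5 and Gch1 stand above 0.5.

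Markers of the other cells in the tissue give the frame for these values. The median log2 fold change was -0.13 over the 10 spiny neuron markers (2 higher, 8 lower), -0.0029 over the 4 cholinergic interneuron markers (2 higher, 2 lower), 0.02 over the 8 cortical markers (4 higher, 4 lower), 0.04 over the 4 thalamic markers (3 higher, 1 lower) and -0.09 over the 5 neuroblast markers (5 lower). The 8 choroid plexus markers had a median of 1.32 (8 higher), and TG values lay wholly above WT values in 2 of them (Clic6 and Sostdc1). Without TG replicate 1, 6 of them could be tested, with a median of 0.48 against 1.11 for the same genes with all mice, and 5 were above 0 and 1 (Folr1) below. Leaving out that mouse also took the median of the spiny neuron markers to 0.02, of the cholinergic markers to 0.13, of the cortical markers to -0.03, of the thalamic markers to -0.03 and of the neuroblast markers to -0.17. Limma called 0 genes in each of these lists, with an unadjusted P value under 0.05 in 3 choroid plexus markers and in none of the others. Summed levels of the spiny neuron markers ran from 98733 to 137631 in TG mice and from 120310.0 to 135158 in WT mice, so the genotypes overlapped.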

How the data were processed

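RNA of the striatum of 6 mice was sequenced as paired-end reads, 3 Shank3 TG and 3 WT, grouped by the sample titles. Per the labels and the methods, the authors trimmed with Trimmomatic 0.35, mapped to GRCm38 with TopHat2 2.1.0, counted reads per gene with HTSeq and deposited a normalized signal, the count divided by the DESeq2 size factor. Annotation release and strand setting are not given in the sources used here. Each library's values were whole multiples (within 0.01) of its smallest value above 0, which gave back the reads for 100% of values. Counting errors cover counting alone.

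Main test: limma 3.58.1 (R 4.3.3), trended, on log2 of the value plus 1, over 17605 genes with a mean of at least 10, Benjamini-Hochberg adjustment over all of them, threshold 0.05. Fold changes on this scale understate those of low genes. Alternatives were DESeq2 1.42.0, edgeR 4.0.16 (quasi-likelihood) and limma-voom on recovered reads, scaling by TMM or by library totals, the low-value filter dropped or raised to 50, a pseudocount of 0.5 or 5, omission of each mouse, a replicate block and a threshold of 0.1. Values of the lists without TG replicate 1 were added after seeing the data. The fit was tested on simulated data. There all genes shared the same spread beyond counting error and no mouse stood apart, unlike in these data.

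Members and lists were chosen with earlier results of these data known. Named were all members, up to 4 genes per list with the smallest P value, and the 5 genes most like the member with the smallest P value. Syt2, Chodl, Sstr2, Gucy1a1, Gucy1b1, Kitl, Vipr2, Sp8, Folr1, Ppp1r1b, Slc17a7, Slc6a3 and Dbh fall outside this rule and were added after their values were seen. Of 46078 identifiers, 45229 were found in GENCODE M21. Exon lengths are unions over transcripts. Some genes of the lists count in the totals but are not reported here by name.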

Additional observations from a re-analysis of the deposited data

How the results depend on the processing

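Under every alternative run, 0 of the 10 members were called, also at an adjusted P value of 0.1. At the threshold of 0.05 the alternatives called between 1 (as with TMM scaling) and 7 (DESeq2) of all genes tested. The median log2 fold change of the members lay between -0.0381 and 0.0324. The number of members higher in TG mice was 4 with all mice under every other scaling, filter, pseudocount and test, and between 4 and 7 with 1 mouse left out (7 without TG replicate 1). With 1 mouse left out, log2 fold changes ran from -0.182 to 0.0348 for Pvalb, from -0.0636 to 0.0566 for Sst, from -0.302 to 0.134 for Vip and from -0.0890 to 0.0108 for Kit, the 4 members that changed sign, and from 0.22 to 0.90 for Calb2, 0.11 to 0.38 for Th, 0.06 to 0.15 for Gad1 and 0.03 to 0.22 for Gad2. These settings hold fewer mice, and the cause was not tested. Unadjusted limma P values under 0.05 were reached by Calb2 without a filter, without WT replicate 2 and with the replicate block. Calb2, Gad1 and Gad2 reached them without TG replicate 3, and Th and Gad1 without WT replicate 3, each with an adjusted P value of at least 0.851. Over all genes, 1234 of 29430 were under 0.05 without a filter, 652 of 17583 without WT replicate 2 and 1024 of 17605 with the block. Without TG replicate 3 the number was 505 of 17631, and without WT replicate 3 it was 587 of 17610. The lowest adjusted P value of any member under any alternative was 0.704, for Gad2 without TG replicate 1. The replicate number as a block called 0 members and left 4 higher. Deviations from the group means correlated at 0.0474, 0.0163 and 0.0928 between mice of the same number. Between mice of different number the correlations ran from -0.125 to 0.0771. TG replicate 1 was closer to WT replicate 2 (0.0771) than to WT replicate 1, while TG replicate 3 was closest to WT replicate 3. The labels do not say what the number stands for, and the numbers were not taken as pairs in the main test. Depth limits Calb2, Vip and Th, with as few as 147 reads, less than the spread between mice does, and limits Slc6a3 and Dbh, with as few as 3 and 1 reads.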
